A study of Mus musculus with 14 samples.

Results

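Kinesins, dyneins and myosins are the motor proteins that carry vesicles, organelles and mRNA along microtubules and actin filaments. Their genes were taken from the deposited count table by symbol: every gene whose symbol starts with Kif, Dync or Myo in the forms used for kinesin motors, dynein subunits and numbered myosins, 69 of 23412 genes. They comprised 38 kinesin genes, 7 dynein genes and 24 myosin genes. The table came from the cerebral cortex of Fmr1 knock-out (KO) mice and control mice, measured by RNA-seq and by ribosome profiling, which sequences the mRNA fragments protected by ribosomes (footprints). Mice of both groups were Rpl22 flox/flox with CamKCre+, so a floxed ribosomal protein gene and a Cre recombinase under a CamK promoter were shared by all of them; KO mice also carried the Fmr1 deletion, written X-Y in the labels. The source of every sample is given as brain of CAMKIIa-Ribotag mice, the labels name no age or further treatment, and no isolation of tagged ribosomes is described. RNA-seq libraries were made from 4 controls (mice 1, 3, 6 and 8) and 4 KO mice (2, 4, 5 and 7), and footprint libraries from 3 controls (mice 1, 3 and 9) and 3 KO mice (2, 4 and 10).

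The heavy chains of these motors hold the ATPase that moves along the filament, whereas intermediate and light chains link the heavy chain to cargo or regulate it. Kinesin-1 (Kif5a, Kif5b, Kif5c) and kinesin-3 (Kif1a, Kif1b) move cargo outward along axons, and cytoplasmic dynein, built on Dync1h1, returns cargo to the cell body. Myosin V and myosin VI move along actin in spines and at the cell cortex. In neurons these proteins supply synapses that lie far from the nucleus, and inherited mutations in several of them cause disease of long axons. The 69 genes were divided into 63 heavy chains, 5 intermediate or light intermediate chains of dynein (Dync1i1, Dync1i2, Dync1li1, Dync1li2 and Dync2li1) and the pseudogene Kif4-ps. The heavy chains include members without motor activity of their own, such as Kif26b and Myo18a. For the comparison of chains, 19 genes of kinesin, dynein and myosin light chains, which the symbols above do not cover, were added from a list, giving 24 light and intermediate chains; Calm2 and Calm3, whose protein serves as a myosin light chain and has many other targets, were kept apart.

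RNA libraries held 8847547 to 11371851 counts each, and footprint libraries 4124065 to 6033030. Values are given as CPM, counts relative to library depth after TMM scaling, a method that equalizes libraries over most genes. Fmr1, the deleted gene, was at 26.1% of control in RNA and at 6.56% in footprints, with no overlap between genotypes (exact two-sided permutation test, p = 0.0286 in RNA and 0.1 in footprints, the smallest each design can give). RNA libraries of KO mice 2, 4 and 7 were close to each other: the chi-square statistic per degree of freedom of a pair lay between 1.18 and 1.32. KO mouse 5 stood apart from them (5.64 to 6.02), and pairs of controls ranged from 1.99 to 11.8. Footprint pairs of 1 genotype lay between 1.15 and 1.42. Nothing in the labels says whether these close libraries share an extraction, so p-values measure the spread between these libraries. The 7 markers of excitatory neurons summed to 2557 to 2827 CPM in control RNA and 3189 to 3469 CPM in KO RNA, and the 7 of oligodendrocytes to 5081 to 5590.0 and 4484 to 4821 CPM. In footprints the excitatory sums were 5635 to 5770.4 and 5415 to 5678 CPM, and the oligodendrocyte sums 8692 to 8849 and 8528 to 8566 CPM. Summed footprints of the 6 astrocyte markers were lower in KO mice without overlap (1688 to 1733 against 1586 to 1599 CPM). Those of the 6 inhibitory neuron markers were higher (1625 to 1671 against 1698 to 1724 CPM). In RNA both sums overlapped. Single markers went both ways in footprints, without overlap. Gfap and Gja1 were lower and Sox9 was higher. Sst (335 to 361 against 396 to 445 CPM), Pvalb and Vip were higher, and Gad2 was lower (397 to 416 against 347 to 365 CPM). Gad1 and Slc32a1 overlapped. None of these markers was at 0 in any library, and the part of cell composition in the results below was not tested. Fewer cells of a type and less RNA per cell cannot be told apart in such bulk samples.

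Many motor genes had fewer footprints in KO cortex and none was called higher, while in RNA 6 fell and 1 rose. In footprints, 48 members passed the filter on low counts and 17 of them fell (adjusted p under 0.05 over all genes tested, edgeR's quasi-likelihood F test; called from here on), and none rose (1 higher at an unadjusted p under 0.05; DESeq2 called 13 lower and 0 higher). Over all 12158 genes tested in footprints, 25.7% were called, 13.7% lower and the rest, 1461 genes, higher. The members lay lower in KO mice in 41 of 48 cases (35 of 48 with plain library sizes, where 1 call, Kif3c, was higher), against 49.1% of all genes. Their median log2 fold change was -0.14, against 0.0061 for all genes. The 17 falls ranged from -0.11 to -0.71 on the log2 scale with a median of -0.33, and the median of all genes called lower was -0.31. In 15 of the 17, each KO library lay below each control library, as it did for 94.4% of all genes called lower. The exceptions were Kif21a and Dync2h1. Some calls depended on the fit: DESeq2 did not call Kif13b, Kif19a, Kif21a or Dync2h1, plain library sizes ended the calls of Kif3a, Kif21a, Dync1i1 and Dync2h1, and 1 fit over all 14 libraries ended those and the calls of Kif5b and Myo18a. Together the members took 0.899% to 0.907% of footprint counts in control libraries and 0.802% to 0.813% in KO libraries. Their share of RNA counts was 1.35% to 1.44% in controls and 1.44% to 1.46% in KO mice. Abundant members weigh most in such shares. Mean Kif5a RNA went from 2831 CPM in controls to 3344 CPM in KO mice. Mean footprints went from 1751 to 1451 CPM for Kif1a and from 1112 to 831 CPM for Dync1h1.

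**Figure D1:**
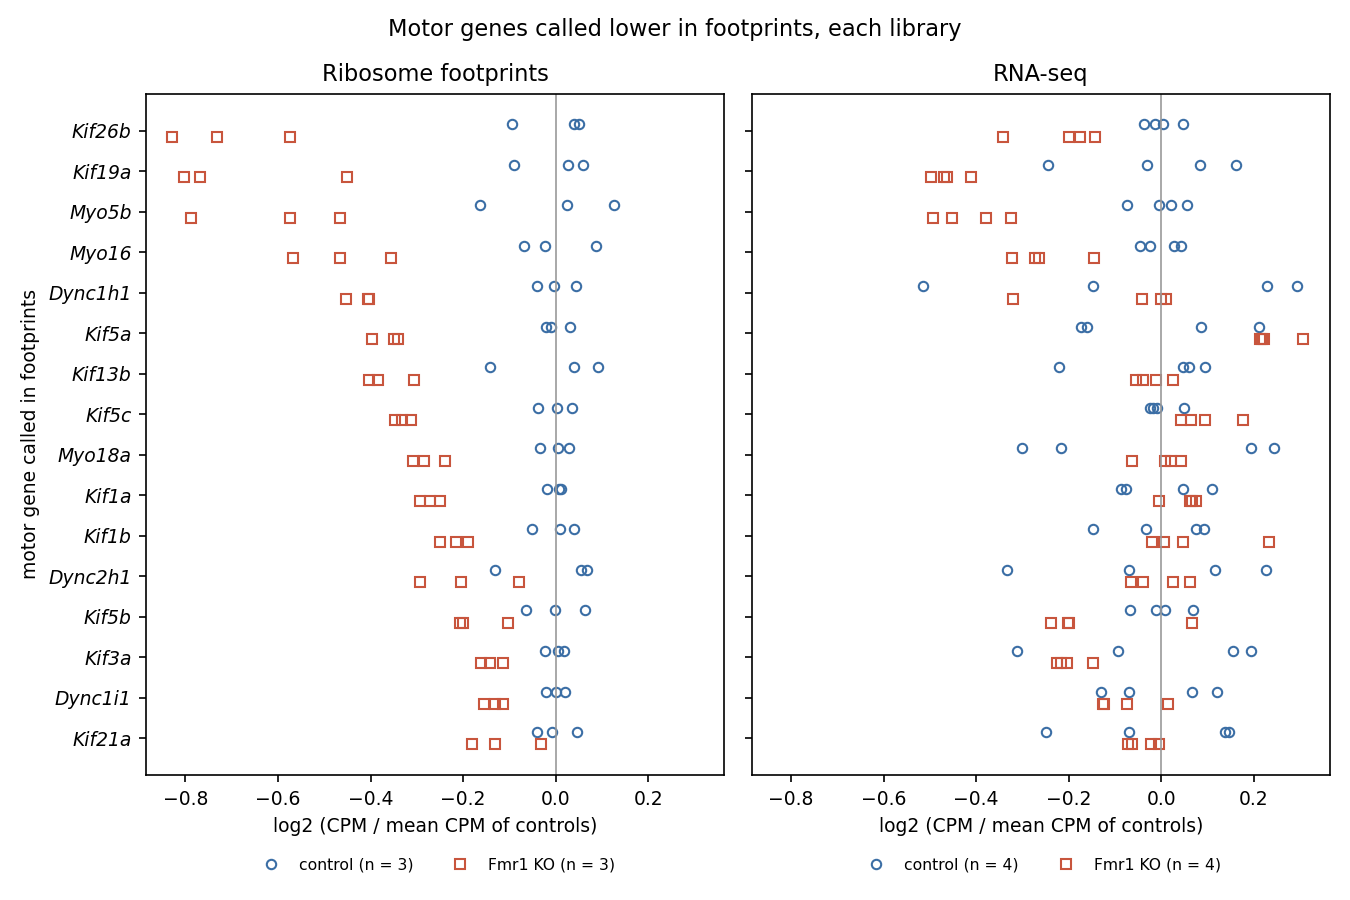
CPM of 16 of the 17 motor genes called in footprints, in each library, as log2 of the ratio to the mean of the control libraries (left, footprints, 3 control and 3 KO; right, RNA-seq, 4 control and 4 KO). Footprint values of KO libraries (squares) lie left of the controls (circles) for all but Kif21a and Dync2h1, whereas RNA values of most genes overlap between genotypes.

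The kinesin-1 heavy chains Kif5a, Kif5b and Kif5c drive transport away from the cell body; Kif5a and Kif5c are mainly neuronal, and Kif5b is found in most cells. All 3 fell in footprints. Kif5a footprints were 574, 590.3 and 569.6 CPM in the controls and 454, 457 and 439 CPM in the KO libraries, without overlap. The log2 fold change of Kif5a in footprints was -0.36 ± 0.030 SE (edgeR, adjusted p = 5.57e-19). Its RNA went the other way in value: 2510.1, 2532, 3004 and 3279 CPM in control mice 1, 3, 6 and 8 and 3289.7, 3303, 3503 and 3279.9 CPM in KO mice 2, 4, 5 and 7, so that every KO library lay above every control library. That RNA difference of 0.24 ± 0.079 SE (edgeR, adjusted p = 0.0767) was not called, although it was with DESeq2 (adjusted p = 0.0401), with the prefix of the sample titles as a block (adjusted p = 0.0414, edgeR) and in 1 fit over all 14 libraries (adjusted p = 0.00961, edgeR). Without control mouse 8 it was called too, at 0.32 (adjusted p = 0.00455, edgeR), as it was in mice 1 to 4 alone, at 0.39 (adjusted p = 1.99e-11, edgeR). With only mice 5 to 8 it was 0.11 and not called (adjusted p = 0.705, edgeR). In those mice the gap was small, with control mouse 8 at 3279 CPM and KO mouse 7 at 3279.9 CPM.

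Kif5c behaved alike, with footprints of 661, 646 and 627 CPM in controls and 512, 507 and 519 CPM in KO mice. Its footprints fell by 0.33 ± 0.028 (SE, adjusted p = 1.25e-17, edgeR) on the log2 scale, while RNA, at 1275 ± 29.8 CPM (SD over 4 libraries) in controls and 1362 ± 55.9 CPM (SD over 4 libraries) in KO mice, was not called (adjusted p = 0.278, edgeR). The widely expressed Kif5b had footprints of 204, 223 and 213 CPM in controls and 198, 185 and 185 CPM in KO mice. This is a smaller fall, -0.18 ± 0.044 SE (edgeR, adjusted p = 9.78e-04). Its RNA was lower in 3 of the 4 KO libraries, at 453, 453, 545 and 441 CPM against 497, 516, 524 and 546 CPM, with KO mouse 5 inside the control range, and it was not called (log2 fold change -0.14 ± 0.067, adjusted p = 0.229, edgeR). Without KO mouse 5 it was called lower (-0.21, adjusted p = 0.0150, edgeR).

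Footprints were then set against RNA in 1 model of the 14 libraries with a genotype-by-assay term; this change in footprints per RNA is called translational efficiency (TE) here, without a statement on the rate of translation. Kif5a had the lowest TE value of the 43 heavy chains tested, -0.61 ± 0.098 SE (edgeR, adjusted p = 4.51e-04), and Kif5c was called as well, -0.43 ± 0.062 SE (edgeR, adjusted p = 1.37e-04). For Kif5b the TE value was -0.040 ± 0.091 SE (edgeR, adjusted p = 0.842). In the 4 mice with both assays, log2 of the Kif5a footprint to RNA ratio was -2.13 and -2.10 in control mice 1 and 3 and -2.86 and -2.85 in KO mice 2 and 4. For Kif5b the same ratios were -1.28 and -1.21 against -1.19 and -1.29, which overlap. The log2 ratio of Kif5a to Kif5b RNA was 2.43 ± 0.141 in controls and 2.83 ± 0.0955 in KO mice (SD, n = 4 each). In footprints the same ratio was 1.44 ± 0.0466 and 1.25 ± 0.0531 (SD, n = 3 each). This pair was chosen after the values were seen, so its ratios are a description with no test.

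**Figure D2:**
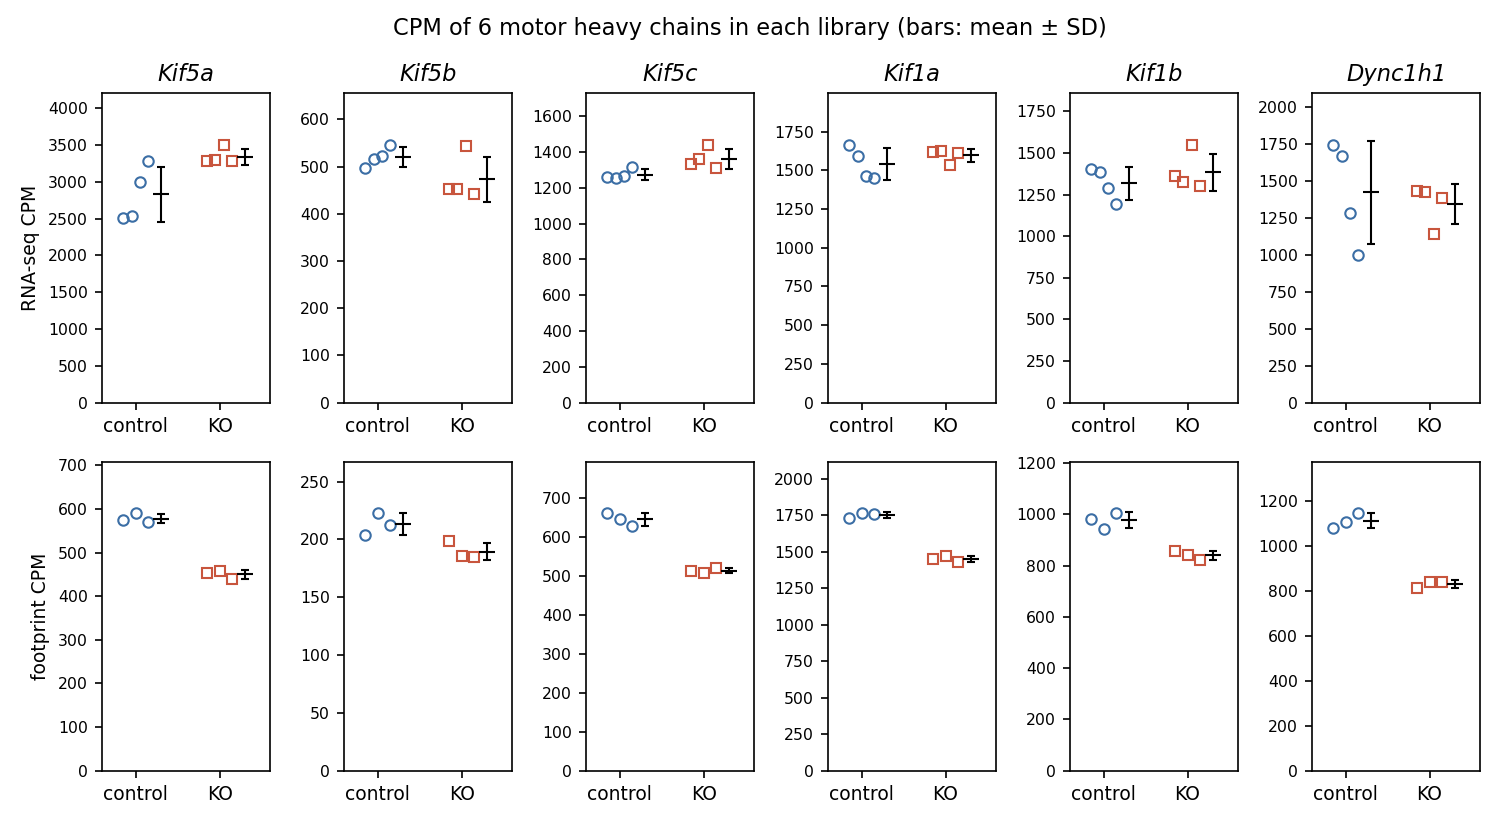
CPM in each library (circles, control; squares, KO; bars, mean ± SD) of the kinesin-1 heavy chains, Kif1a, Kif1b and Dync1h1, with RNA-seq above (4 libraries a group) and footprints below (3 a group). All axes start at 0. Footprints do not overlap between genotypes for any of the 6 genes, and RNA overlaps for Kif5b, Kif5c, Kif1a, Kif1b and Dync1h1.

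Kinesin-3 motors carry synaptic vesicle precursors (Kif1a, Kif1b) and other vesicles. Of 6 members of this family tested in footprints, 3 fell (13.7% of all genes did) and the other 3 were lower in value. Kif1a footprints were 1728, 1764 and 1760.1 CPM in controls and 1451, 1472 and 1429 CPM in KO mice, a log2 fold change of -0.27 ± 0.021 SE (edgeR, adjusted p = 2.48e-20). Its RNA was 1543 ± 103 CPM (SD over 4 libraries) in controls and 1597 ± 40.4 CPM (SD over 4 libraries) in KO mice, with overlap (adjusted p = 0.643, edgeR). TE of Kif1a fell by 0.33 ± 0.069 (SE, adjusted p = 0.00478, edgeR). Kif1b, at 983, 942 and 1004 CPM and 856, 840.3 and 821 CPM in footprints, fell by 0.22 ± 0.025 (SE, adjusted p = 6.69e-12, edgeR). Its RNA overlapped between genotypes, from 1191 to 1406 CPM in controls and 1300.1 to 1548 CPM in KO mice. The TE call of Kif1b (-0.30 ± 0.085, adjusted p = 0.0368, edgeR) was lost with the mouse as a block (-0.14, adjusted p = 0.0513) and in 7 further alternatives, 5 of which left out 1 mouse (KO mouse 2, 4 or 10, control mouse 6 or 9). Kif13b, a carrier of membrane proteins, fell in footprints, -0.35 ± 0.12 SE (edgeR, adjusted p = 0.0153), from 30.7, 26.2 and 29.7 to 22.1, 23.3 and 21.8 CPM; without control mouse 1 or KO mouse 10, and with DESeq2, it was not called. Kif13a (-0.34 ± 0.16), Kif16b (-0.15 ± 0.16) and Kif1c (-0.026 ± 0.15) were not called in footprints.

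Among the other kinesin families, 4 members fell in footprints, of 16 tested there, and 3 were called in RNA, of 24 tested; over all genes 13.7% fell in footprints and 7.51% were called in RNA. Kinesin-2 motors serve cilia and dendrites: Kif3a fell in footprints (-0.14 ± 0.035 SE (edgeR, adjusted p = 0.00132)), from 334, 336 and 327 CPM in controls to 307, 297 and 301 CPM; with plain library sizes it was -0.079 and not called (adjusted p = 0.0816, edgeR). Its partners in the kinesin-2 complex were not called in footprints, at -0.064 ± 0.065 for Kif3b and 0.061 ± 0.043 for Kif3c; with plain library sizes Kif3c was called higher (0.12, adjusted p = 0.0270, edgeR). Kif3b fell in RNA, where controls were 107, 108, 97.4 and 89.2 CPM and KO libraries 84.6, 85.5, 82.8 and 85.0 CPM, a log2 fold change of -0.25 ± 0.066 SE (edgeR, adjusted p = 0.0345); in the exon columns it was -0.076 (adjusted p = 0.402, edgeR), and the call was lost in 10 of 19 alternatives, among them leaving out control mouse 1, 3 or 6 or KO mouse 2, 4 or 7. Kif17, the dendritic kinesin-2 known as a carrier of NMDA receptor subunits, was the only member called higher in RNA by edgeR over the 8 libraries with no block. Its RNA was 21.4, 22.7, 22.0 and 20.2 CPM in controls and 27.8, 27.2, 24.7 and 27.0 CPM in KO mice (0.31 ± 0.078 SE (edgeR, adjusted p = 0.0280)). Kif17 footprints overlapped, at 21.5, 24.1 and 27.4 and 19.7, 24.7 and 19.1 CPM (-0.22 ± 0.12, not called). Its TE fell (-0.53 ± 0.15 SE (edgeR, adjusted p = 0.0343)), a call that was lost in 10 of 20 alternatives, among them the mouse as a block (adjusted p = 0.164, edgeR) and leaving out KO mouse 2, 7 or 10 or control mouse 3 or 9.

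Kif21a, a kinesin-4 that steadies microtubule ends, fell least of the called members (-0.11 ± 0.043 SE (edgeR, adjusted p = 0.0484)), and its libraries overlapped, at 219, 211 and 207 and 194, 208 and 187 CPM. This call was lost in 8 of 11 alternatives, among them leaving out control mouse 1 or 3 or KO mouse 2 or 10. Kif21b (-0.12 ± 0.082) and Kif2a, a kinesin-13 that takes microtubules apart (-0.086 ± 0.042), were not called. Kif26b, which lacks a working motor ATPase, showed the largest fall of any member in footprints, from 14.7, 13.3 and 14.6 CPM to 9.51, 8.53 and 7.98 CPM, -0.71 ± 0.17 SE (edgeR, adjusted p = 8.98e-04). Its RNA was not called (-0.21 ± 0.077, adjusted p = 0.108, edgeR) although the libraries did not overlap, at 26.6, 25.8, 25.1 and 25.5 CPM in controls and 22.5, 22.8, 20.4 and 23.3 CPM in KO mice.

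Kif19a, which limits the length of motile cilia, fell in both assays. Its RNA went from 12.7, 14.5, 11.0 and 13.7 CPM to 9.38, 9.76, 9.42 and 9.20 CPM (-0.46 ± 0.11 SE (edgeR, adjusted p = 0.0221)) and its footprints from 11.8, 11.6 and 10.7 to 6.66, 8.30 and 6.51 CPM (-0.66 ± 0.19 SE (edgeR, adjusted p = 0.00582); with DESeq2 adjusted p = 0.0648). Markers of ependyma and choroid plexus, the ciliated lining of the ventricles, were lower in KO footprints as a sum. Their 7 genes, none at 0 in any library, summed to 29.1 to 30.9 CPM in control footprints and 20.2 to 22.8 CPM in KO footprints. In RNA these sums were 57.3 to 316 CPM and 44.8 to 147 CPM, the upper ends being set by Ttr, a choroid plexus gene, at 263 CPM in control mouse 8 and 104 CPM in KO mouse 5. Without these mice the RNA sums were 57.3 to 59.2 and 44.8 to 45.6 CPM and did not overlap. Of 6 of these markers tested in footprints, Dnahc5 and Ttr fell. Footprints of Foxj1, Ccdc153, Tmem212, Dnahc9 and Kl overlapped between genotypes. The part of these markers in the change of Kif19a was not tested. Mitotic kinesins, which act in dividing cells, were at or below 7.22 CPM in every control RNA library. Of 11 of them, 10 were tested in RNA with 0 called, and 3 in footprints with 0 called (edgeR; unadjusted p under 0.05 for 1 in RNA and 0 in footprints; DESeq2 also called 0 of 11 in each). The proliferation markers Mki67, Top2a, Ccnb1, Cdk1, Bub1 and Aurkb summed to 25.1 to 27.5 CPM in control footprints and 14.5 to 24.9 CPM in KO footprints, with Ccnb1 at 0 in at least 1 library.

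Dynein is the minus-end motor of microtubules. Footprints of its heavy chain Dync1h1 fell to 74.7% of control, from 1081, 1109 and 1146 CPM to 812, 839 and 840.3 CPM. This log2 fold change of -0.42 ± 0.025 SE (edgeR, adjusted p = 4.21e-28) had the lowest adjusted p of the 48 members and was called in all 11 alternatives. The RNA of Dync1h1 varied more within the genotypes than between them: 1745, 1669, 1285 and 997 CPM in control mice 1, 3, 6 and 8 and 1433, 1424, 1141 and 1384 CPM in KO mice 2, 4, 5 and 7 (-0.081 ± 0.14, adjusted p = 0.770, edgeR). With only mice 1 to 4 it was called lower, -0.25 (adjusted p = 6.12e-07, edgeR); in mice 5 to 8 alone the value was 0.15 and not called. Its TE was -0.35 ± 0.17 and not called (adjusted p = 0.244, edgeR). With the mouse as a block it was called at a smaller size, -0.16 (adjusted p = 0.0143, edgeR). Within mice, log2 of its footprint to RNA ratio was -0.69 and -0.59 in the controls and -0.82 and -0.76 in the KO mice. The heavy chain of ciliary dynein, Dync2h1, fell in footprints by 0.20 ± 0.066 (SE, adjusted p = 0.0178, edgeR), with overlapping libraries (81.8, 94.0 and 93.1 and 77.7, 73.2 and 84.8 CPM). That call was lost in 7 of 11 alternatives, including leaving out KO mouse 2 or 4 or control mouse 3 or 9.

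Of the 5 intermediate and light intermediate chains of dynein, all were lower in value in KO footprints and 1 was called (25.7% of all genes were), with a median of -0.056. The called one, the neuronal intermediate chain Dync1i1, was at 277, 281 and 285 CPM in controls and 259.6, 257 and 252 CPM in KO mice (-0.14 ± 0.038 SE (edgeR, adjusted p = 0.00374)). With plain library sizes Dync1i1 was at -0.076 and not called (adjusted p = 0.127, edgeR). Dync1i2 (-0.049 ± 0.039), Dync1li1 (-0.035 ± 0.042) and Dync1li2 (-0.056 ± 0.040) were within 0.06 of 0 in footprints and turned positive with plain library sizes. Dync1li2 fell in RNA, from 279, 281, 272 and 251 to 223, 229, 259 and 219 CPM, with overlap (-0.22 ± 0.063 SE (edgeR, adjusted p = 0.0466)). That call was lost in 12 of 19 alternatives: with the exon columns (-0.12, adjusted p = 0.270, edgeR), without a filter on low counts, with the title prefix as a block (adjusted p = 0.0649, edgeR), in the 3 fits with libraries summed or only mice 5 to 8, and without control mouse 1, 3 or 6 or KO mouse 2, 4 or 7. Dync2li1 of ciliary dynein was not called in any fit. None of the 5 was called in TE by edgeR (1 had an unadjusted p under 0.05), DESeq2 or limma, and their TE median was -0.0038; with the mouse as a block, Dync1li2 was called higher (0.25, adjusted p = 0.00450, edgeR).

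Among the myosins, 16 of 24 were tested in footprints, 14 were lower in value and 4 fell, beside 13.7% called lower over all genes. The class V motor Myo5b, linked to recycling endosomes, fell in both assays. Its RNA was 89.1, 87.5, 83.4 and 91.3 CPM in controls and 67.5, 64.2, 70.1 and 62.4 CPM in KO mice (-0.41 ± 0.060 SE (edgeR, adjusted p = 0.00145)), and its footprints went from 34.3, 39.1 and 41.9 to 27.8, 25.8 and 22.3 CPM (-0.62 ± 0.11 SE (edgeR, adjusted p = 1.44e-06)). Neither assay overlapped. Its relative Myo5a, the main myosin V of brain, was not called in RNA (0.033 ± 0.058), footprints (-0.046 ± 0.027) or TE (-0.087 ± 0.071).

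Myo16, a neuronal myosin, also fell in both assays, from 109.6, 111, 106 and 104 to 86.1, 89.0, 97.3 and 89.5 CPM in RNA (-0.25 ± 0.057 SE (edgeR, adjusted p = 0.0177)) and from 66.5, 71.7 and 64.5 to 52.8, 45.6 and 48.9 CPM in footprints (-0.47 ± 0.078 SE (edgeR, adjusted p = 9.67e-07)). Thus 4 members, Kif19a, Myo5b and Myo16 among them, were called lower in RNA and in footprints. The other 13 members called in footprints were not called in RNA by edgeR over the 8 libraries with no block. Over all genes, 3.94% were called lower in RNA and 13.7% in footprints. The overlap of these calls was not counted, so whether the split is particular to motors was not tested. Of the 13 members, Kif5a was called higher in RNA with DESeq2. With only mice 1 to 4, a fit that called 24.2% of all genes, Dync1h1 (-0.25), Kif3a (-0.35), Kif5b (-0.15), Kif21a (-0.17), Dync1i1 (-0.21) and Myo18a (-0.18) of these were called lower in RNA too, and Kif5a and Kif5c higher. Myo18a, which lacks motor activity of its own, fell in footprints only: controls were 233, 223 and 229 CPM and KO libraries 194, 185 and 188 CPM (-0.28 ± 0.042 SE (edgeR, adjusted p = 9.50e-08)). Its RNA differed by 0.0027 ± 0.10, with control libraries from 229.7 to 335 CPM. Myo10, the motor of filopodia, was called in TE (-0.48 ± 0.14 SE (edgeR, adjusted p = 0.0314)). Its RNA was higher in value (58.0, 53.9, 46.6 and 43.6 against 63.7, 62.1, 55.8 and 61.4 CPM, adjusted p = 0.0718, edgeR) and its footprints lower (58.2, 56.8 and 50.3 against 49.0, 49.4 and 44.5 CPM, adjusted p = 0.0561), neither of them called. With the title prefix as a block both were, at 0.27 in RNA (adjusted p = 0.0377, edgeR) and -0.21 in footprints (adjusted p = 0.0479, edgeR). The TE call was lost in 8 of 20 alternatives, 6 of which left out 1 mouse (control mouse 3 or 6, KO mouse 2, 4, 7 or 10). Not called in footprints were Myo6, the motor toward the pointed end of actin (-0.057 ± 0.044), Myo9a (0.025 ± 0.063) and Myo9b (-0.15 ± 0.16), both of class IX, and Myo1d (-0.11 ± 0.12).

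In RNA, 60 members were tested and 7 were called, Kif17 higher and 6 lower, among them Dync1li2, Kif19a, Kif3b, Myo16 and Myo5b. Of all 13507 genes tested in RNA, 7.51% were called, 3.94% lower and 3.58% higher, and for 60 genes that share is only a few genes fewer than the 7 called. The median of the members was -0.039, and 35 of 60 were lower in KO mice against 50.2% of all genes. DESeq2 called 9 members, 6 lower and 3 higher: Kif17, Kif5a and Kif1c. All 7 calls were lost when the libraries of KO mice 2, 4 and 7 were merged, and with only mice 5 to 8. Myo5b was the single call that stayed when any 1 mouse was left out. Conversely, the 4 libraries of mice 1 to 4 alone called 19 members, 15 lower and 4 higher, and leaving out KO mouse 5 and control mouse 8 called 15. These counts moved with those of all genes, of which 0.423% were called with mice 5 to 8, 24.2% with mice 1 to 4 and 22.6% without KO mouse 5 and control mouse 8. The 9 members not tested in RNA (Kif2b, Kif4-ps, Kif12, Kif18b, Myo1a, Myo1g, Myo3a, Myo7b and Myo15) reached at most 1.61 CPM in an RNA library, and Kif4-ps had no value in the columns used. A further 12 members, 9 of them kinesins, were tested in RNA alone and gave no call there by edgeR or DESeq2 (1 had an unadjusted p under 0.05 with each).

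In TE, 48 members were tested and 6 were called, each of them lower: Kif5a, Kif5c, Kif1a, Kif1b, Kif17 and Myo10. Over the 12145 genes tested, 7.44% were called, 4.22% lower and 3.22% higher. The members' median was -0.13 against -0.011 for all genes, and 36 of 48 were below 0 (31 with plain library sizes) against 51.7% of all genes. Kif5a, Kif5c and Kif1a were called in all 20 alternatives, with plain library sizes leaving these 3 alone. With the mouse as a block, which rests on mice 1 to 4, 7 members were called (15.1% of all genes were), 5 lower (Kif5a, Kif5c, Kif1a, Myo10 and Dync1h1) and 2 higher, Kif3a (0.20, adjusted p = 0.0264, edgeR) and Dync1li2. Of the 6 called members, Kif5a, Kif5c, Kif1a and Kif1b were also called in footprints, and Kif17 and Myo10 were not.

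**Figure D3:**
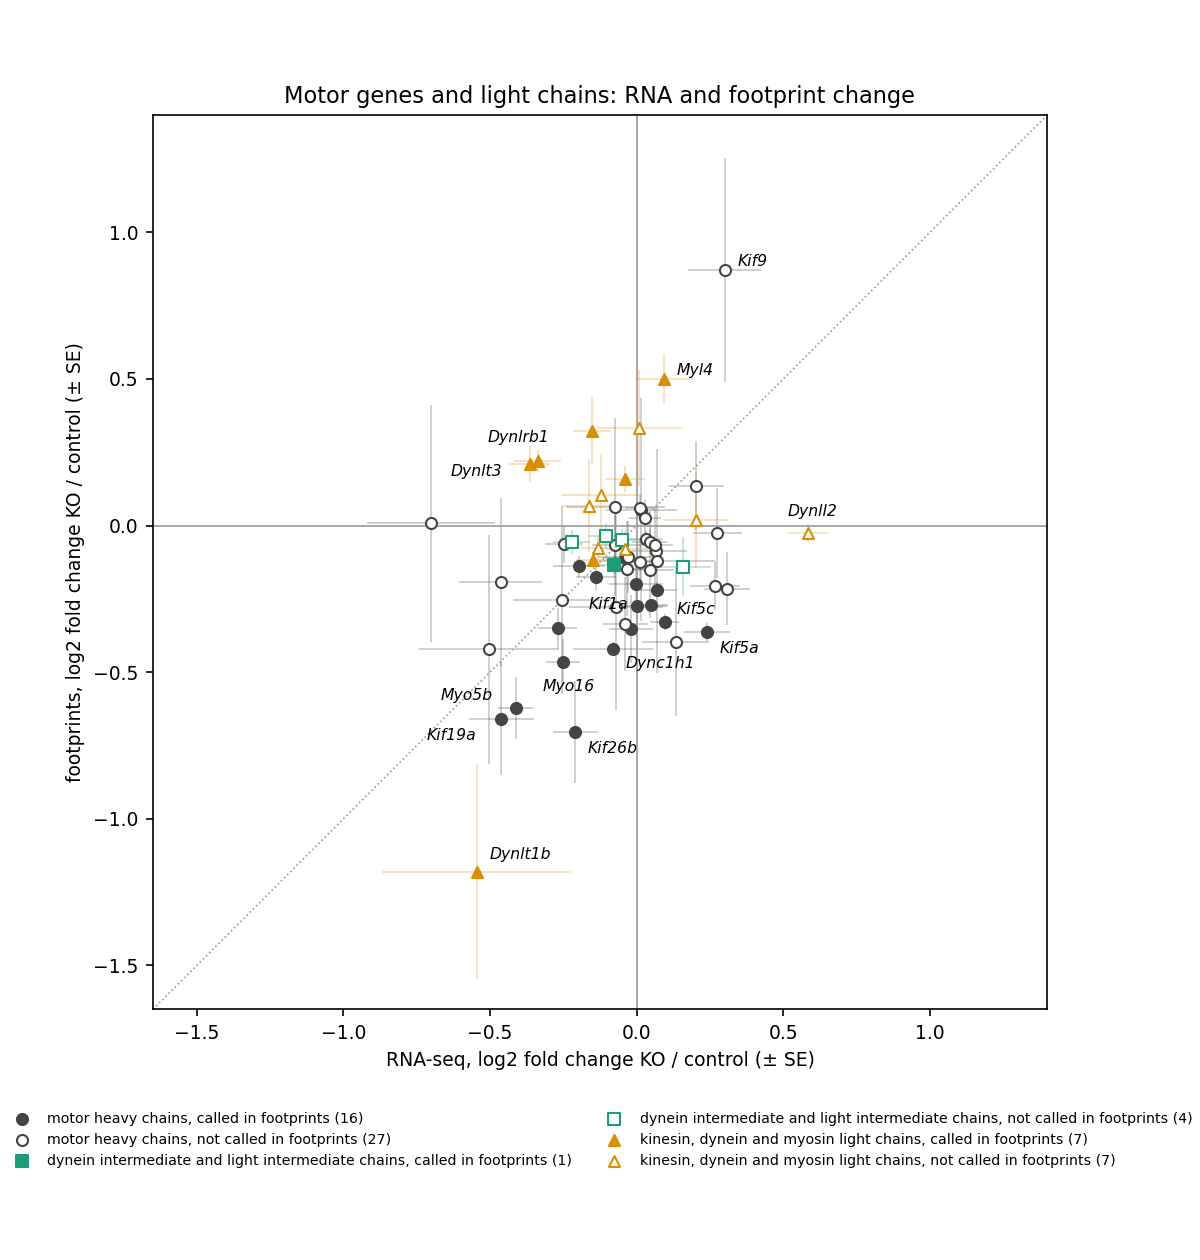
Log2 fold change (KO against control, ± SE) in RNA-seq (x axis) and in footprints (y axis) of 43 heavy chains, 5 dynein intermediate and light intermediate chains and 14 light chains tested in both. Filled symbols were called in footprints; on the dotted line both changes are equal. All 16 called heavy chains lie below 0 in footprints, and 5 of the 7 called light chains (Calm2 and Calm3 not included) lie above 0.

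Called heavy chains were all lower in footprints, whereas called light and intermediate chains lay on both sides of 0. Of 43 heavy chains tested in footprints, 36 were lower in value, 16 fell and none rose, with a median of -0.18. Of 19 light and intermediate chains, 10 were lower in value, 3 fell and 5 rose, with a median of -0.026; over all genes 25.7% were called in footprints, 13.7% lower, and 7.51% in RNA. In TE the medians were -0.14 for heavy chains, 33 of 43 below 0, and 0.064 for light and intermediate chains, 7 of 19 below 0. The heavy chain median minus that of the smaller chains was -0.20 in TE and -0.15 in footprints. In RNA it was 0.086, from a heavy chain median of -0.034 (31 of 55 lower, 5 called lower and 1 higher) and a light and intermediate median of -0.12 (16 of 21 lower, 3 called lower and 1 higher). Across the alternatives for TE it stayed between -0.17 and -0.27. These differences were not tested, because the genes of a list are not replicates. The spread between libraries of the same quantity, 0.23 (SD) for TE, is as large as the difference.

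**Figure D4:**
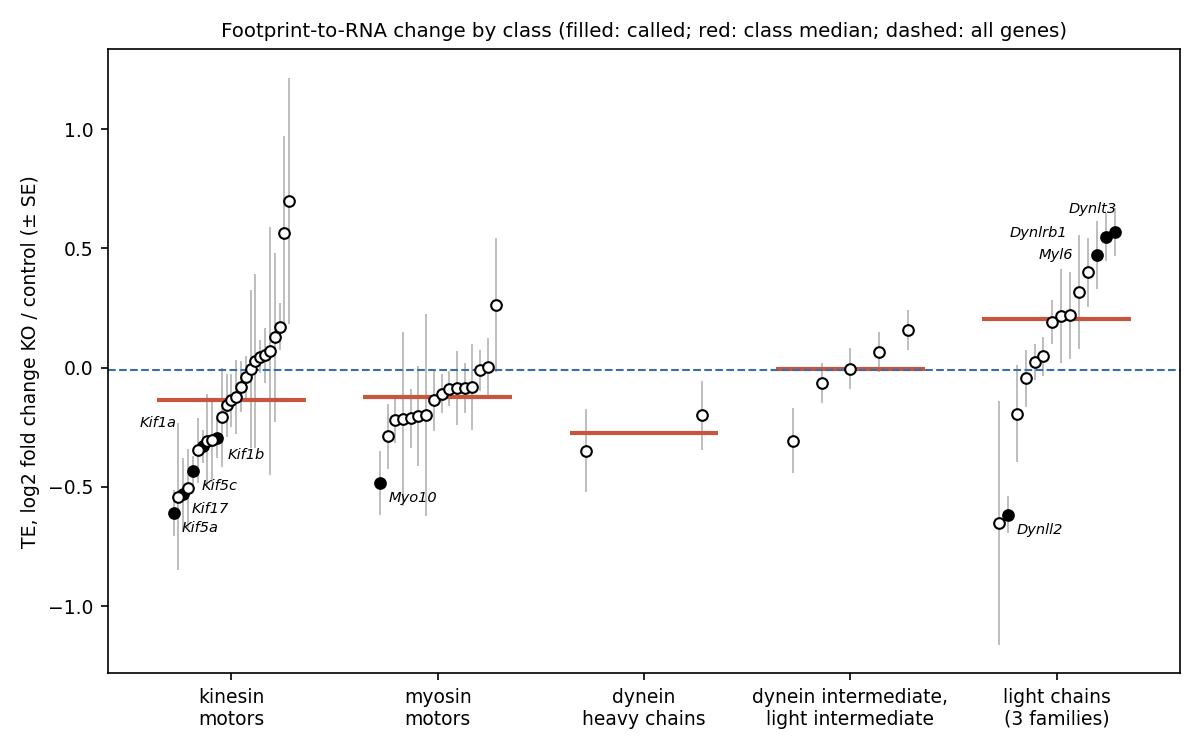
TE change (log2 fold change of footprints relative to RNA, KO against control, ± SE) of each gene, by class, ordered by value within a class. Filled points were called, red lines are class medians and the dashed line is the median of all genes; the 6 called motors lie at -0.30 or below, and 3 of the 4 called light chains at 0.47 or above.

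Among the 19 light chains, 14 were tested in footprints, where 5 rose and 2 fell, and in TE, where 3 rose and 1 fell (over all genes 25.7% were called in footprints and 7.44% in TE); these genes are named because they were called. Dynlrb1, a roadblock light chain of dynein, had more footprints in KO mice, 292, 289.8 and 299.8 CPM against 255, 254 and 249 CPM, and less RNA, 112, 107, 99.9 and 110.3 against 129, 121, 131 and 161 CPM. Its log2 fold change was 0.22 ± 0.037 SE (edgeR, adjusted p = 1.23e-06) in footprints and -0.34 ± 0.080 SE (edgeR, adjusted p = 0.0203) in RNA. Dynlt3, a Tctex-type light chain, had the same pattern, with footprints of 81.8, 85.2 and 82.1 CPM in controls and 101, 90.0 and 97.6 CPM in KO mice (0.21 ± 0.063, adjusted p = 0.00694, edgeR) and RNA at -0.36 ± 0.070 (adjusted p = 0.00777). TE rose by 0.55 for Dynlrb1, 0.57 for Dynlt3 and 0.47 for the myosin light chain Myl6. Dynll2, a light chain that dynein shares with myosin V, went the other way: its RNA rose from 42.9, 47.1, 46.8 and 49.6 CPM to 69.5, 66.5, 75.8 and 68.2 CPM (0.58 ± 0.067 SE (edgeR, adjusted p = 3.17e-04)), its footprints were 418, 419.5 and 405 and 413, 405 and 402 CPM (not called), and its TE fell (-0.62 ± 0.078 SE (edgeR, adjusted p = 4.89e-05)). Kinesin light chains, which bind cargo for kinesin-1, differed among themselves in footprints: Klc1 fell (-0.12 ± 0.027, adjusted p = 4.45e-04, edgeR), Klc2 rose (0.16 ± 0.044, adjusted p = 0.00416) and Klc4 was not called. The myosin light chains Myl4 (0.50 ± 0.085) and Myl6 (0.32 ± 0.12) rose in footprints. Calm2 (-0.33 ± 0.022, adjusted p = 9.98e-24, edgeR) and Calm3 (-0.14 ± 0.021, adjusted p = 7.88e-08) fell in footprints, in all 11 alternatives, and both fell in RNA, -0.34 ± 0.050 and -0.21 ± 0.048, calls that were lost in 3 and 8 of 19 alternatives. The remaining call, Dynlt1b (-1.18 ± 0.37, at 3.68 CPM in controls), was lost without KO mouse 2, without control mouse 9 and in 1 fit over all 14 libraries, and is uncertain, since reads of its near-identical copies could have been split among them. The RNA and TE calls of Dynll2 and the TE calls of Dynlrb1 and Dynlt3 were made in all alternatives run, as was the footprint call of Myl4. The RNA call of Dynlrb1 was lost in 7 of 19 alternatives, among them the exon columns and leaving out KO mouse 2, 4 or 7, and that of Dynlt3 in 4 of 19, the exon columns included. Also lost were the footprint call of Dynlt3 with DESeq2 and without KO mouse 2, that of Klc1 with plain library sizes, and those of Myl6 in 6 of 11 alternatives in footprints and 11 of 20 in TE. In 1 fit over all 14 libraries the footprint calls of Dynlrb1, Dynlt3, Klc1 and Klc2 were lost too.

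Other genes of motor complexes were read from lists. Dynactin, the cofactor that dynein needs to walk, had 12 subunits tested in footprints, of which 2 rose (Capza2 and Capzb) and 1 fell, about the 25.7% called over all genes. The one that fell was Dctn1, its largest subunit, from 363, 366 and 379.5 CPM in controls to 257, 268 and 291 CPM (-0.44 ± 0.037 SE (edgeR, adjusted p = 2.04e-18)), with TE at -0.69 ± 0.13 SE (edgeR, adjusted p = 0.00213). In TE, Dctn3 and Capza2 rose. Among 10 dynein regulators and adaptors tested in footprints, Ndel1 and Hook1 rose and Pafah1b1 (Lis1) fell, and in TE only Ndel1 was called (0.37 ± 0.11 SE (edgeR, adjusted p = 0.0411)), a call lost in 10 of 20 alternatives. The TE call of Capza2 was lost in 8 of 20, the footprint calls of Pafah1b1 in 5 of 11 and of Hook1 in 3 of 11, and those of Capza2 and Capzb in 1 fit over all 14 libraries. The TE call of Dctn3 was lost without KO mouse 2 and with libraries summed. Of 20 cargo adaptors tested, 3 rose and 6 fell in footprints, and 3 fell in TE, where 7.44% of all genes were called and 4.22% fell: Mapk8ip3 (JIP3), which joins cargo to kinesin-1 and dynein (-0.29), and the liprins Ppfia1 (-0.67) and Ppfia3 (-0.42), scaffolds linked to Kif1a. The TE call of Mapk8ip3 was lost without KO mouse 2 or 4. Of the footprint calls of adaptors, those of Arl8b, Mapk8ip3, Ppfia1 and Ppfia3 were made in all 11 alternatives. The higher calls of Arl8a and Trak2 were each lost in 5, with DESeq2, in 1 fit over all 14 libraries and without KO mouse 2 or 4 or control mouse 3. The lower call of Kidins220 was lost in 5, among them leaving out KO mouse 2 or 10, that of Fez1 in 2 and that of Ppfia2 with DESeq2. The conventional myosin heavy chains Myh9 (-0.42 ± 0.051, adjusted p = 3.33e-11, edgeR) and Myh10 (-0.17 ± 0.031, adjusted p = 5.33e-06), motors of actin contraction, fell in footprints, and Myh11 and Myh14 were not called; the call of Myh10 was lost in 1 fit over all 14 libraries. Among C-terminal kinesins and Cenpe, 3 genes were tested in footprints: Kifc2, Kifc3 and Cenpe. Of these, Kifc3 fell (-0.35 ± 0.11, adjusted p = 0.0108, edgeR), a call lost with DESeq2 and without KO mouse 2 or control mouse 3.

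In control cortex alone, heavy chains had a lower median of footprints for their RNA than smaller chains. The median log2 ratio of mean footprint CPM to mean RNA CPM was -0.72 over 43 heavy chains, 0.44 over the 5 dynein intermediate and light intermediate chains, 0.0010 over 14 light chains and -0.13 over all 12145 genes. Of the 43 heavy chains, 34 lay below the median of all genes, as did 6 of the 14 light chains and none of the 5 dynein chains; the myosin light chain Myl6, at -3.17, was lower than any heavy chain. Kif1c (-2.62) and Kif5a (-2.29) had the lowest ratios of the 48 members, followed by Myo9a (-2.12) and Myo9b (-2.11), and Kif2a had the highest (1.29). Neighbours in this order often overlapped between the 2 control mice with both assays: Myo9a was at -2.07 and -2.20, and Myo9b at -2.19 and -1.95. The kinesin-1 family was spread widely, from Kif5a to Kif5b (-1.29) and Kif5c (-0.98), each below the median of all genes. Kif1a, at 0.18, lay above that median, with 0.055 and 0.15 in control mice 1 and 3 and -0.15 and -0.14 in KO mice 2 and 4. For the dynein complex the heavy chain Dync1h1 was at -0.36, and its partners Dync1i1 and Dync1i2 at 0.65 and 0.32. A ratio is free of gene length only if both assays counted the same region, which the sources used here do not state, and levels of different genes were not compared otherwise, since coding lengths were not analysed here.

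**Figure D5:**
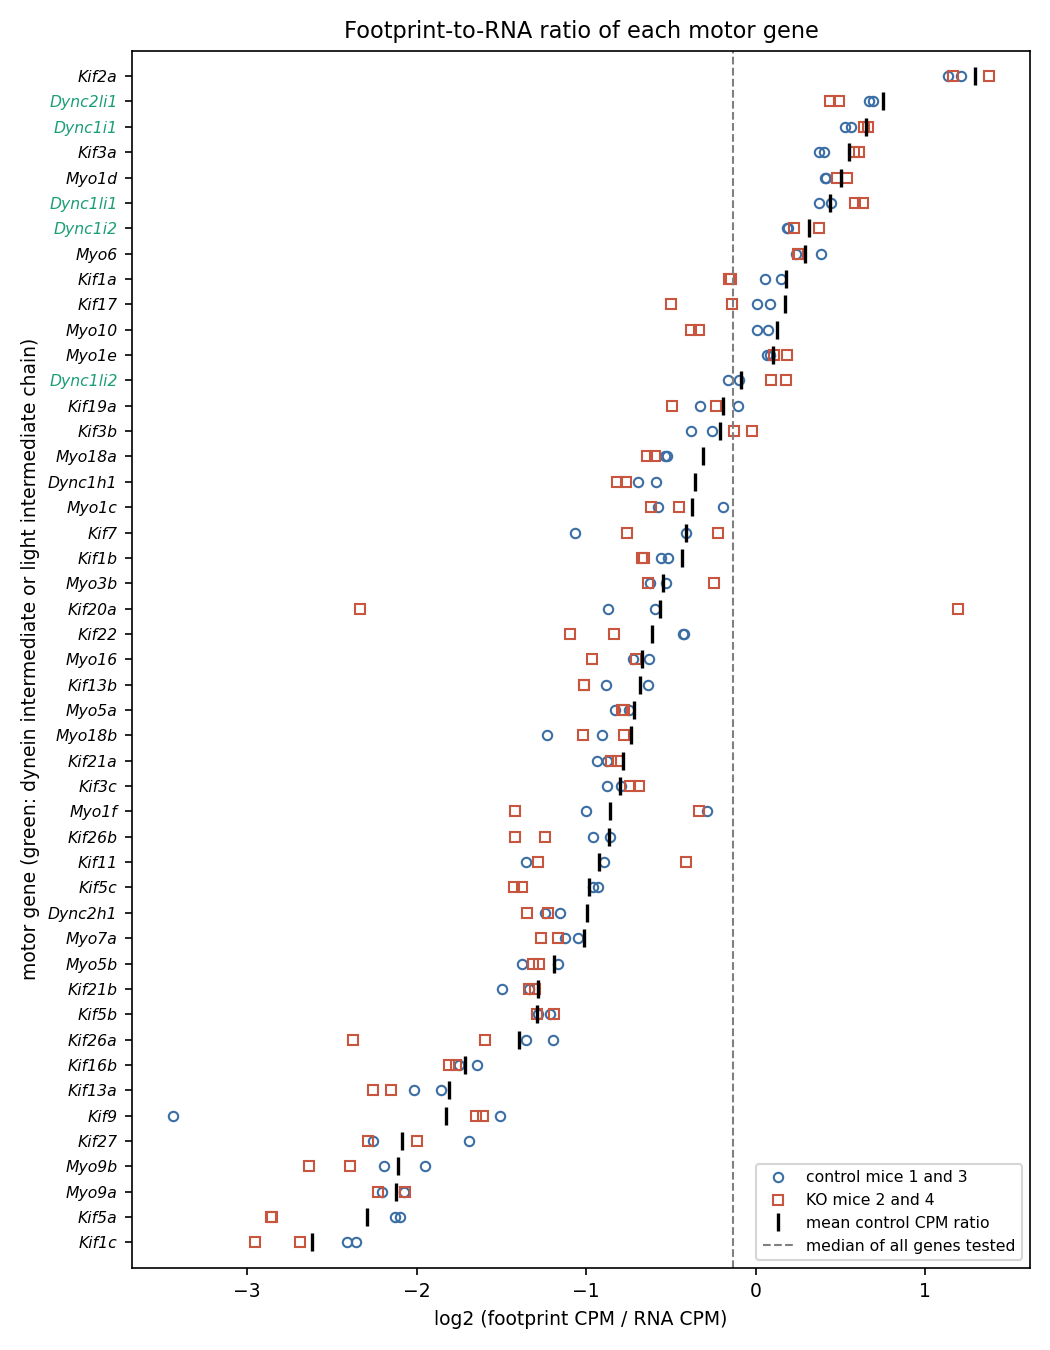
Log2 of the footprint to RNA ratio of 47 of the 48 motor genes tested in both assays, ordered by the control ratio (black ticks, means of 3 footprint and 4 RNA control libraries). Circles are control mice 1 and 3 and squares KO mice 2 and 4; the dashed line is the median of all genes at -0.13. Kif5a, Kif5c, Kif1a and Myo10 show KO mice to the left of the controls, as do others such as Kif1b, Kif17, Kif13b and Dync1h1. Kif3a, Kif3b, Kif3c, Dync1i1, Dync1li1 and Dync1li2 are among those with KO mice to the right. The control means of the dynein intermediate and light intermediate chains (green) lie to the right of the line.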

How the data were processed

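Counts per gene were deposited by the authors as 1 table of whole numbers without normalization, per the file headers 1 footprint column per footprint library and, per RNA library, 1 column without a suffix and 1 ending in exon. The submitters' processing notes name Bowtie2, STAR 2.5, featureCounts and Subread 1.4.6 and the builds mm9 and mm10, without their roles; the region and strand setting counted are not given in the sources used here, so a heavy chain's reads on an overlapping antisense gene cannot be told apart. Per the labels' protocols, footprints came from monosomes separated on sucrose gradients after RNase digestion, and ribosomal RNA was removed from the RNA samples.

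Of 23412 genes, 20563 had values in the RNA and footprint columns used. All 69 symbols matched RefSeq (GRCm38.p6). The exon columns were an alternative. Counts were tested over all genes with edgeR 4.0.16 (R 4.3.3) by quasi-likelihood F tests, two-sided, with TMM, filterByExpr at a minimum count of 10 and Benjamini-Hochberg adjustment. TE was the genotype-by-assay term of a model of all 14 libraries, for genes passing the filter in RNA and in footprints. Alternatives used DESeq2 1.42.0, limma 3.58.1 (voom), other scalings and filters, left-out mice, summed libraries and the mouse number as a block. The labels' descriptions number the mice across both assays and give mice 1 to 4 a library in each, which was read as the same animal; deviations of the 2 libraries of a mouse correlated at -0.012 to 0.035 (Pearson's r across 12145 genes, which are not independent replicates). CPM are counts relative to the TMM-scaled library depth, and SEs follow from the F statistic. The scripts were tested on simulated data.

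The members and gene lists (kinesin light chains, dynein light chains, myosin light chains, dynactin, regulators, adaptors, conventional myosins, C-terminal kinesins and cell type markers) were chosen with earlier results of these data known. Named by rule were 31 core members (1 of them is not reported here) and, for each fit, the 4 largest rises and falls among called members at a mean of at least 1 CPM; other genes are named because they were called, or lie at an end of an order. Kif28, Dync2i1 and Dync2i2 of the lists were not analysed here. Depth was 8847547 to 11371851 counts for RNA libraries and 4124065 to 6033030 for footprint libraries.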

Additional observations from a re-analysis of the deposited data

Results flagged for a closer look

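In RNA groups of 4 libraries, 7 of 66 groups examined had 1 library far from the other 3, with about 3.3 expected by chance. In 5 of them it was KO mouse 5. Its Kif5a RNA was the highest of the KO libraries at 3503 CPM (others 3279.9 to 3303 CPM), as were Kif5b at 545 CPM (441 to 453 CPM) and Myo5a at 1200.3 CPM (1084 to 1103 CPM). Its Kif1a RNA was the lowest at 1537 CPM (1611 to 1626 CPM) and its Dync1h1 RNA the lowest at 1141 CPM (1384 to 1433 CPM). Control mouse 8 had the lowest Kif13b RNA, 39.7 CPM (47.8 to 49.4 CPM), and control mouse 3 the highest Myo9a RNA, 427 CPM (375 to 383 CPM). Without KO mouse 5 and control mouse 8, a setting chosen after seeing the data, 15 of 60 members were called in RNA and 9 of 48 in TE, beside 22.6% and 16.5% of all genes.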

How the results depend on the processing

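The 7 RNA calls became 1 to 12 when 1 mouse was left out, 0 with KO mice 2, 4 and 7 summed, 0 with control mice 1 and 3 summed as well, 0 with only mice 5 to 8, 19 with only mice 1 to 4, 12 in 1 fit over all 14 libraries and 15 without KO mouse 5 and control mouse 8. Of all genes, 0.623% and 0.263% were called in RNA in the fits with summed libraries, 0.423% with mice 5 to 8, 24.2% with mice 1 to 4 and 22.6% without KO mouse 5 and control mouse 8, and the fit over 14 libraries called 1890 genes. The 17 footprint calls became 11 in 1 fit over all 14 libraries (12.6% of all genes), 13 with DESeq2 and 14 with plain library sizes, and lay at 15 to 18 with 1 mouse left out. The 6 TE calls became 3 with plain library sizes and 3 to 7 with 1 mouse left out. With the mouse as a replicate block there were 7 TE calls in edgeR and 6 in limma; in edgeR it changed the TE calls of 5 members, Kif1b, Kif17, Dync1h1, Dync1li2 and Kif3a, and kept all 11 TE calls of light chains, dynactin, regulators and adaptors. The title prefix as a block gave 9 RNA, 18 footprint and 4 TE calls. The heavy chain median minus that of light and intermediate chains kept its sign in each alternative run, at -0.17 to -0.27 in TE, -0.13 to -0.18 in footprints and 0.0027 to 0.15 in RNA. For the control ratio it was -1.04, and -0.97 and -1.21 with control mice 1 and 3 or KO libraries. For single genes, 60 of 608 RNA values, 7 of 352 footprint values and 35 of 639 TE values changed sign; 1 of these, Myo18a in RNA with only mice 1 to 4, was a call (-0.18, adjusted p = 0.00160, edgeR). The sign changed with only mice 1 to 4 for Kif1a (-7.0e-05), Kif1b (-0.050), Kif2a (-0.16), Kif3c (-0.021), Kif21b (-0.044), Myo5a (-0.061), Myo9a (-0.024) and Myo18a (-0.18) in RNA and Kif2a (0.082), Kif21a (0.064), Kif21b (0.082), Dync1i1 (0.090), Dync1i2 (0.092) and Myo1d (0.081) in TE. With only mice 5 to 8 it changed for Kif13b (0.034), Kif21a (0.11), Dync1h1 (0.15), Dync2h1 (0.15), Dync1i1 (0.070), Dync1i2 (0.031) and Myo1d (0.11) in RNA. Without KO mouse 5 and control mouse 8 it changed for Kif1b (-0.030), Kif2a (-0.12), Kif3c (-0.012), Myo5a (-0.031), Myo6 (-0.0020), Myo9a (-0.0086) and Myo18a (-0.061) in RNA and Kif2a (0.027), Kif5b (1.4e-04), Dync1i1 (6.4e-04), Dync1i2 (0.023), Myo1d (0.026) and Myo9a (0.022) in TE. With plain library sizes this was so for Dync2h1 (5.2e-04) in RNA, Dync1i2 (0.010), Dync1li1 (0.024), Dync1li2 (0.0032), Myo5a (0.014) and Myo6 (0.0030) in footprints and Kif5b (0.028), Dync1i1 (0.0029), Dync1i2 (0.062) and Myo9a (0.056) in TE. The mouse as a replicate block in edgeR changed the sign for Kif2a (0.085), Kif21a (0.066), Kif21b (0.077), Dync1i1 (0.095), Dync1i2 (0.10) and Myo1d (0.089) in TE. Summing KO mice 2, 4 and 7 changed it for Myo1d (0.010), Myo9b (-0.017) and Myo18a (-0.015) in RNA, and summing control mice 1 and 3 too for Kif13b (5.6e-04), Kif21a (1.8e-04), Dync2h1 (0.039) and Myo1d (0.029) in RNA and Kif3a (-0.0048) in TE. The exon columns changed it for Kif13b (0.0025) and Dync2h1 (0.020) in RNA. Dync2h1 RNA, at -0.0025, was above 0 with DESeq2 (0.0012), without a filter (3.6e-04), with the title prefix as a block (0.0065) and in 1 fit over all libraries (0.0048). With 1 mouse left out, signs changed for genes whose range spans 0. In RNA these were Dync1h1 (-0.22 to 0.034), Dync2h1 (-0.10 to 0.082), Kif13a (-0.084 to 0.026), Kif13b (-0.083 to 0.014), Kif21a (-0.11 to 0.012), Kif21b (-0.011 to 0.059), Kif2a (-0.057 to 0.12), Kif3c (-0.0072 to 0.031), Myo18a (-0.083 to 0.10), Myo1d (-0.091 to 0.022) and Myo9b (-0.0038 to 0.12). In footprints these were Myo9a (-0.013 to 0.076). In TE these were Dync1i2 (-0.052 to 0.037), Kif3a (-0.0086 to 0.14), Kif5b (-0.091 to 0.036) and Myo9a (-0.046 to 0.039). The cause of these changes was not tested. Plain library sizes moved the median of all genes to 0.066 in footprints and 0.056 in TE. In footprints Kif13a, at 14.3 CPM, was not called at -0.34 ± 0.16 (SE); what more depth would show was not tested.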
